A study of Mus musculus with 10 samples.

Results

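Endothelial cells line the blood vessels, the endocardium and the lymphatics, and in the fetal heart they build the coronary plexus while the ventricular wall thickens. Their growth is directed by vascular endothelial growth factors (VEGFs), ligands secreted largely by other cells, which bind receptor tyrosine kinases on the endothelial surface, while the Tie receptors and their angiopoietin ligands act on vessel stability. The 10 genes described here are the VEGF ligands *Vegfa* and *Vegfc*, the VEGF receptors *Kdr*, *Flt1* and *Flt4*, the Tie receptors *Tie1* and *Tek*, and the endothelial surface and junction genes *Cdh5*, *Pecam1* and *Emcn*. They were chosen by name, out of 23195 genes in the deposited comparison, and each name matched 1 gene.

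The study compared hearts dissected at embryonic day (E) 13.5 from 5 wild-type and 5 *Nos1ap* null male mouse embryos of strain C57BL6/J by stranded polyA RNA-seq, 1 library per embryo, to ask which transcripts change when *Nos1ap*, which encodes an adaptor protein of nitric oxide synthase, is lost. The null allele is a germline deletion made with a Cre driven by the CMV promoter, so it is carried by every cell of the embryo and not by endothelium alone, and the wild-type embryos carry no engineered allele. Values are normalized counts, that is read counts divided by a size factor that corrects for depth. The deposited table gives 1 mean per genotype, and the counts of single libraries were worked out from the digits of these means. Libraries are numbered 1 to 5 within a genotype from the highest to the lowest size factor, which is not the replicate number of the labels. Libraries held an estimated 11328233 to 14023004 read pairs on genes. *Nos1ap* was at 126 to 161 normalized counts in the wild-type libraries and at 31.1 to 44.4 in the null libraries, a log2 fold change of -1.83 ± 0.121 (SE, limma, adjusted *P* = 5.9e-09). The heart was recognisable by its contractile genes, since all 12 cardiomyocyte markers on the list were present and the ventricular myosin gene *Myh7* had group means of 128162 and 129864. Wild-type library 3 stood apart by neuronal transcripts, whose 5 listed genes with counts summed to 585 normalized counts there and to 51.7 to 70.7 in the other 4 wild-type libraries. That sum leaves out *Nefm*, *Tubb3* and *Nefl*, the most abundant neuronal genes listed. Their group means were 311, 242 and 221 in wild type and 17.9, 69.3 and 31.1 in the null.

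None of the 5 genes that could be tested here was called different between the genotypes. The other 5 are described only by their group means, as the authors' own test results were not used. Sets of library counts were settled in both groups for *Flt4*, *Emcn* and *Vegfc* by a first rule that left at most 0.01 sets to chance, and for *Kdr* and *Flt1* by a second rule that needed a posterior probability of at least 0.95. For *Tek*, *Tie1*, *Pecam1*, *Cdh5* and *Vegfa* no single set could be settled, and no test was run on them here. Over 10281 protein-coding genes of the first rule, limma called 3 at the thresholds of the study (adjusted *P* under 0.01 and absolute log2 fold change over 1), which is 0.0292% of the genes tested, and the 3 were *Nos1ap*, *Mt2* and *Gm7694*. The paper names the same 3 at these thresholds, and so none of the genes described here. With counts of the second rule included, 3 of 11225 genes were called, or 0.0267%, and the adjusted *P* was 0.998 for each of the 5 genes tested here. At an unadjusted *P* under 0.05, limma counted 384 of these 11225 genes, or 3.42%, and *Kdr* was the 1 member among them. The labels list the samples as separate male embryos' hearts without naming litters, so *P* values measure the spread between these samples.

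**Figure D1:**
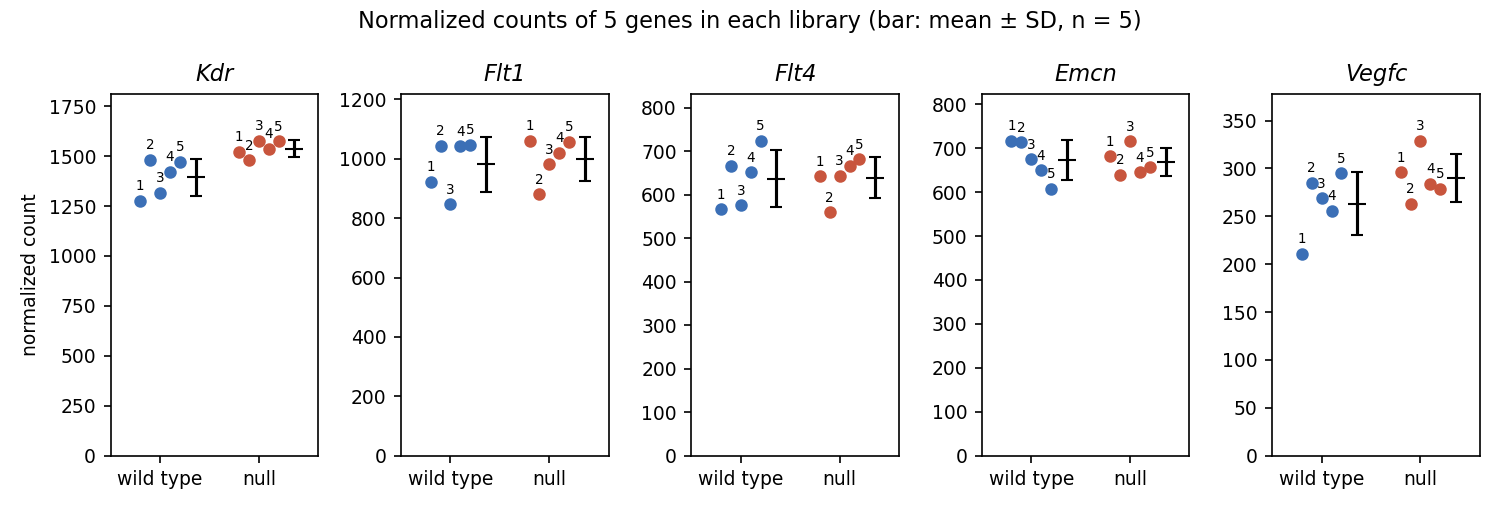
Each panel plots 1 gene, with the normalized count on a linear vertical axis from 0 and the 2 genotypes on the horizontal axis (points: libraries, with their number; bars: mean ± SD, n = 5). *Kdr* reached 1479 to 1577 in the null libraries against 1276 to 1481 in wild type, an overlap from 1479 to 1481. The groups also overlapped for each of the other 4 genes, *Vegfc* from 263 to 295.

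*Kdr* encodes VEGF receptor 2, the main signalling receptor for VEGF-A, and lies on chromosome 5 (75932827 to 75978458, minus strand, GRCm38, GENCODE M21). Its normalized counts were 1276, 1481, 1317, 1421 and 1473 in wild-type libraries 1 to 5. In null libraries 1 to 5 they were 1523, 1479, 1577, 1537 and 1574. All 5 null libraries lay above the wild-type median of 1421 and 4 of them lay above the highest wild-type library, with null library 2 falling just under it. The group means were 1394 ± 92.7 and 1538 ± 40.3 (SD, n = 5), so the null mean was 10.3% higher. On the log2 scale with a pseudocount of 1 the difference was 0.14 ± 0.041 (SE), with a 95% interval from 0.06 to 0.23. Permuting the genotypes over all arrangements of the 10 libraries gave an exact two-sided *P* of 0.0159 for the difference, where the smallest value possible is 0.00794. *Kdr* was the 1 of 5 genes with an exact *P* under 0.05, which 4.19% of all genes with counts had, 2.19% with the higher mean in the null. It did not pass the correction over all genes (limma, adjusted *P* = 0.998). With each library left out in turn, the exact *P* stayed between 0.00794 and 0.0397. The counts of *Kdr* rest on the second rule, with a posterior of 0.965 in wild type and 0.96 in the null. That rule favours sets whose deviations over the libraries resemble those of other genes.

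*Flt1* encodes VEGF receptor 1, which binds VEGF-A tightly but signals weakly, and a soluble form of which acts as a decoy. The gene lies on chromosome 5 (147561604 to 147726011, minus strand), and its count does not separate the forms. The wild-type libraries held 923, 1044, 848, 1043 and 1047 normalized counts. The null libraries held 1061, 881, 981, 1020 and 1058. The groups covered almost the same range, with 2 null libraries above the highest wild-type library and wild-type library 3 lowest of all. The means were 981 ± 91.3 and 1000 ± 74.2 (SD, n = 5), and the log2 difference of 0.03 ± 0.0657 had a 95% interval from -0.11 to 0.17 (exact permutation *P* = 0.762). Without wild-type library 3, the one with neuronal transcripts, the log2 difference was -0.0218.

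*Flt4* encodes VEGF receptor 3, the receptor for VEGF-C and the one that later marks lymphatic endothelium, and lies on chromosome 11 (49609263 to 49652739, plus strand). Its normalized counts were 567, 667, 576, 651 and 724 in wild type. They were 642, 560, 644, 667 and 681 in the null. Every null library but library 2 lay inside the wild-type range, and null library 2 was the lowest of the 10. The means of 637 ± 65.7 and 639 ± 46.8 (SD, n = 5) differed by 1.59 normalized counts (exact permutation *P* = 0.976), and the 95% interval of the log2 difference ran from -0.13 to 0.15.

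The balance of the 3 VEGF receptors was read within each library as a ratio of normalized counts, which was chosen after the values had been seen and was not tested. *Flt1* over *Kdr* was 0.644 to 0.734 in wild type and 0.596 to 0.697 in the null, with overlapping groups. *Flt4* over *Kdr* was 0.437 to 0.492 in wild type and 0.379 to 0.434 in the null, so the groups did not overlap. The same separation, lower in the null relative to *Kdr*, was present for 724 of 11224 other genes, or 6.45%, so it was not particular to *Flt4*.

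The ligand *Vegfc*, which acts through *Flt4* and drives coronary and lymphatic growth, lies on chromosome 8 (54077606 to 54187096, plus strand). The wild-type libraries held 211, 285, 269, 256 and 295 normalized counts. The null libraries held 296, 263, 329, 284 and 279. Wild-type library 1 was the lowest and null library 3 the highest, and the groups overlapped between 263 and 295. The means were 263 ± 32.5 and 290 ± 24.5 (SD, n = 5). The log2 difference was 0.15 ± 0.0826 (SE), with a 95% interval from -0.03 to 0.32, and it did not pass the exact permutation test (*P* = 0.198). Without wild-type library 1, the log2 difference was 0.0697. The ligand *Vegfa*, which is induced by low oxygen and binds *Kdr* and *Flt1*, lies on chromosome 17 (46016993 to 46032369, minus strand). Its group means were 2133 in wild type and 2241 in the null, 5.04% higher in the null.

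*Emcn* encodes endomucin, a sialoglycoprotein of capillary, venous and endocardial surfaces, and lies on chromosome 3 (137341067 to 137432185, plus strand). Its wild-type libraries held 717, 714, 675, 650 and 608 normalized counts. Its null libraries held 682, 640, 716, 646 and 657, all inside the wild-type range. The means were 673 ± 45.7 and 668 ± 31.2 (SD, n = 5), with a log2 difference of -0.01 ± 0.0509 (SE, 95% interval from -0.11 to 0.10, exact permutation *P* = 0.873).

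The other 4 endothelial genes are described by their group means. *Tek*, the receptor of the angiopoietins (chromosome 4, 94739289 to 94874976, plus strand), had means of 1587 and 1698, 7.03% higher in the null. *Tie1*, an orphan receptor that associates with *Tek* (chromosome 4, 118471191 to 118490061, minus strand), had means of 2207 and 2299, 4.19% higher in the null. *Cdh5*, the VE-cadherin of endothelial adherens junctions (chromosome 8, 104101625 to 104144511, plus strand), had means of 3287 and 3366, 2.4% higher in the null. *Pecam1*, an adhesion molecule of endothelium that platelets and leukocytes also carry (chromosome 11, 106654217 to 106750628, minus strand), had means of 1866 and 1823, 2.27% lower in the null. None of the 10 genes shares exonic bases with another gene of the annotation.

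**Figure D2:**
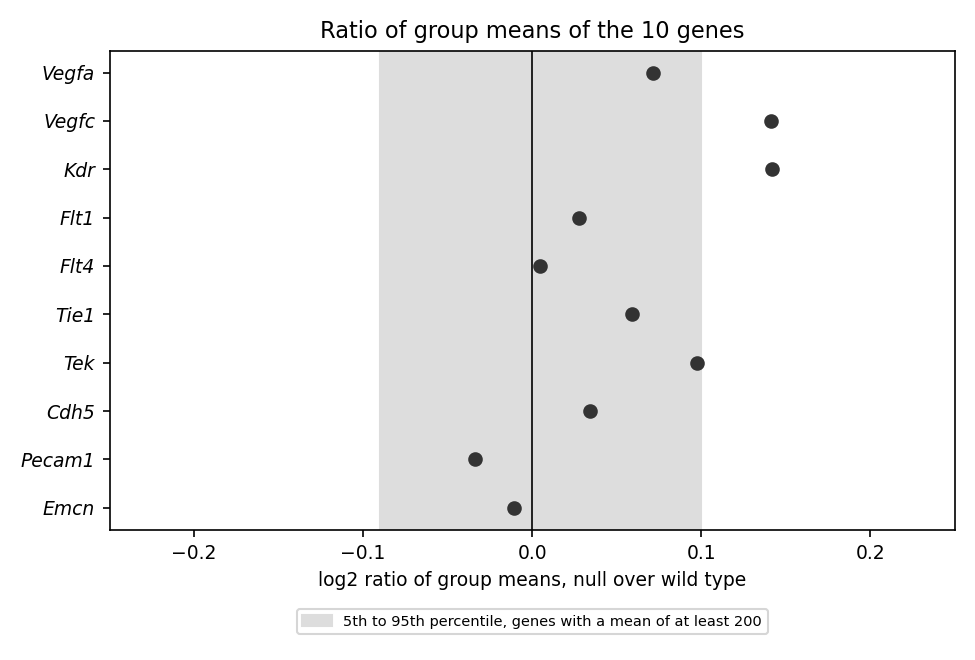
Each point is the log2 ratio of the null to the wild-type group mean of 1 gene, and the grey band spans the 5th to 95th percentile, -0.09 to 0.10, of protein-coding genes with a mean of at least 200 normalized counts. *Kdr* and *Vegfc*, both at 0.14, lie outside the band and the other 8 genes lie inside it.

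By group means, 8 of the 10 genes were higher in the null, against 52.6% of 8529 protein-coding genes whose mean reached 200. Their median log2 ratio was 0.05, with *Pecam1* lowest at -0.03 and *Kdr* and *Vegfc* highest at 0.14, and the median over the 8529 genes was 0.003. An absolute log2 ratio over 0.1 was found for 2 of the 10 genes and for 9.53% of the 8529 genes. In bulk tissue, fewer cells of a type and less RNA per cell cannot be told apart, and the 8 endothelial genes are read from the same hearts and are not independent. Platelet and erythroid transcripts were also higher by group means: all 11 platelet genes were higher in the null (median log2 ratio 0.35), as were 10 of 11 erythroid genes (median 0.44). Macrophage genes went the other way, with 2 of 11 higher in the null (median -0.12). Of the 10 platelet genes and 1 erythroid gene tested, none passed an adjusted *P* of 0.05 by limma or voom. By limma, 2 platelet genes had an unadjusted *P* under 0.05, where 3.42% of 11225 genes had. The summed level of the platelet genes was 423 to 630 in the wild-type libraries and 464 to 904 in the null libraries, the highest being null library 2, in which *Kdr*, *Flt1* and *Flt4* were lowest of the null group. The 1 erythroid gene with library counts was at 51.9 to 222 in wild type and 39.3 to 256 in the null. The part of blood cells in the values of *Pecam1*, *Tek* and *Tie1* was not tested.

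Levels of different genes were compared per 1000 bases of exon. In wild-type hearts *Cdh5* was highest, at a mean of 782 normalized counts per 1000 bases, followed by *Vegfa* at 498, *Tie1* at 449, *Tek* at 337 and *Pecam1* at 300. The 5 genes with library counts came next, in the order *Kdr* (154 ± 10.3), *Emcn* (124 ± 8.44), *Vegfc* (107 ± 13.3), *Flt4* (77.4 ± 7.98) and *Flt1* (72.7 ± 6.76, SD, n = 5). *Flt4* and *Flt1* differed by less than their spread, whereas *Kdr* stood above *Emcn* by more than either SD on this length. The order was the same in the null hearts, from *Cdh5* at 801 to *Flt1* at 74.1. Among 13279 protein-coding genes whose mean reached 10, *Cdh5* lay above 95.5% and *Flt1* above 50.8%. The order depended on the length used: with the longest protein-coding transcript in place of all exonic bases, 2 of the 10 places were kept in wild type, *Pecam1* moved to the third place at 542 and *Flt1* to the eighth at 142, above *Flt4* at 102. In wild type *Emcn*, at 260, then lay above *Kdr*, at 235, whereas in the null *Kdr* was at 260 and *Emcn* at 258.

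**Figure D3:**
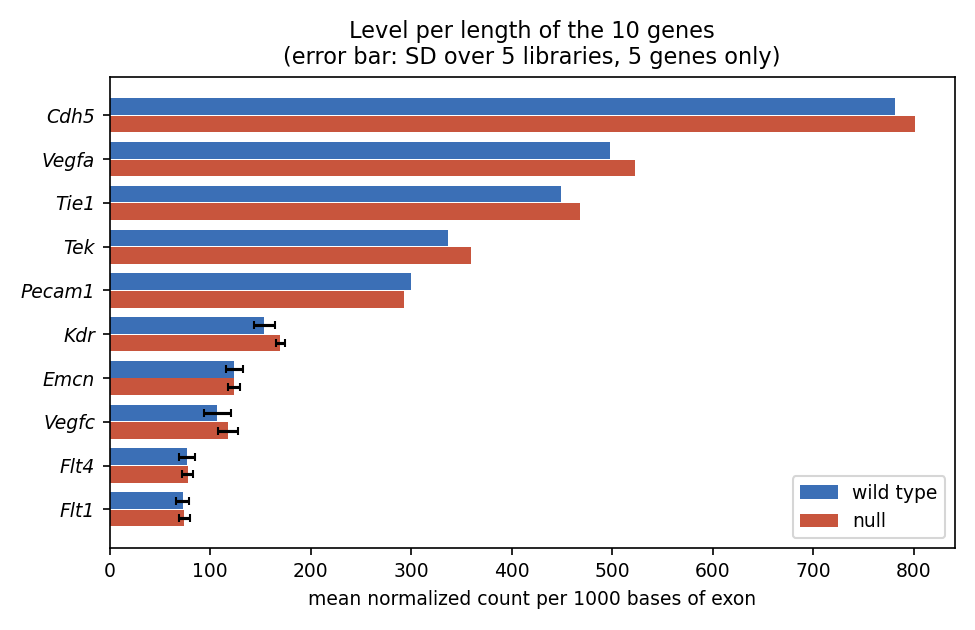
Bars start at 0 and give the group mean per 1000 bases of exon for wild-type and null hearts, with an error bar (SD over 5 libraries) for the 5 genes with library counts. The order of the 10 genes, from *Cdh5* at 782 and 801 to *Flt1* at 72.7 and 74.1, is the same in both genotypes.

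The 3 VEGF receptors varied together between libraries of 1 genotype. The spread of *Flt4* between wild-type libraries was 10.3% of its mean, where counting alone gives 3.93%, and for *Kdr* it was 6.65% against 2.66%. Between null libraries it was 7.33% against 3.98% for *Flt4*, and for *Kdr* it was 2.62%, close to the 2.56% of counting alone. After centring log2 values on the mean of each genotype, the correlation over the 10 libraries was 0.89 between *Kdr* and *Flt4*, 0.88 between *Flt1* and *Flt4* and 0.77 between *Kdr* and *Flt1*. With any 1 library left out, these values stayed from 0.86 to 0.92, from 0.82 to 0.91 and from 0.72 to 0.83. *Vegfc* had 0.77 with *Kdr* (0.54 to 0.90 with 1 library left out) and 0.38 with *Flt1* (0.25 to 0.59). *Emcn* had coefficients near or below 0, -0.23 with *Kdr*, -0.13 with *Flt1* and -0.35 with *Flt4*. With 1 library left out these ran from -0.54 to 0.10, from -0.38 to 0.11 and from -0.64 to 0.07. Within the null libraries alone the 3 coefficients of *Emcn* were 0.59, 0.27 and 0.28, against -0.45, -0.35 and -0.66 in wild type. These coefficients describe 10 libraries that share depth and dissection, and centred values of *Emcn* had a correlation of 0.60 with the log2 size factor, where *Kdr* and *Flt4* had -0.48 and -0.47. The counts of *Kdr* and *Flt1* were taken by the second rule, which favours sets whose deviations over the libraries resemble those of other genes. The part of that choice in their coefficients was not tested.

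**Figure D4:**
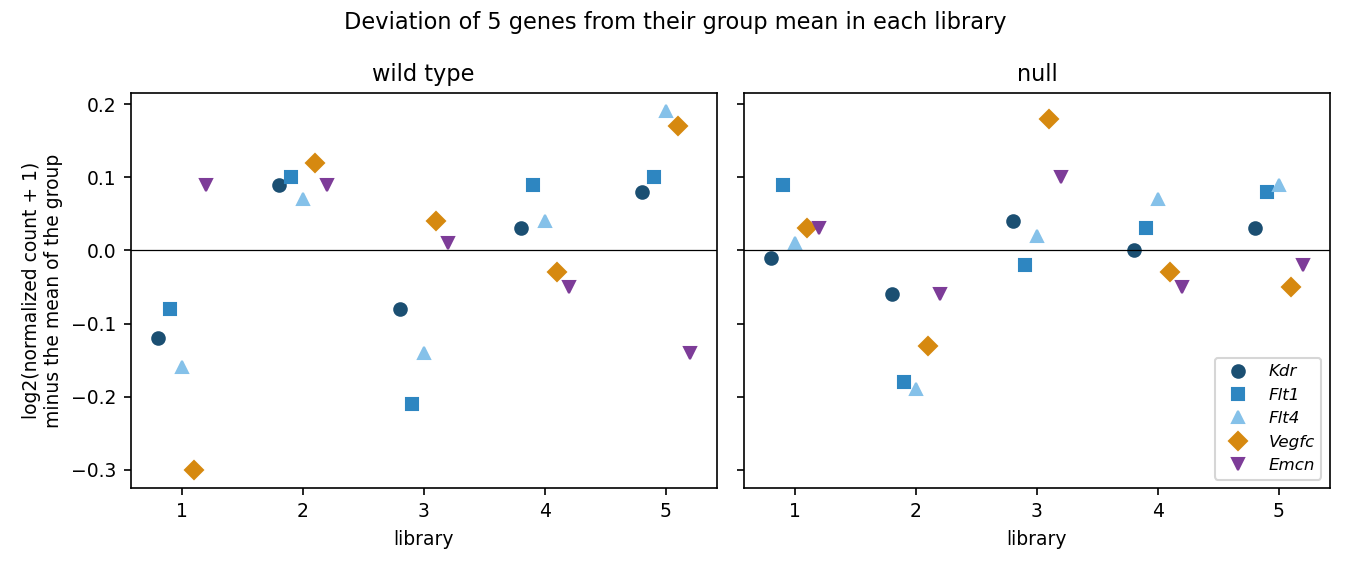
Points give the log2(normalized count + 1) of 5 genes minus the mean of their genotype, for wild-type libraries on the left and null libraries on the right. *Kdr*, *Flt1* and *Flt4* lie below 0 in wild-type libraries 1 and 3 and in null library 2, while *Emcn* lies at 0.09 and 0.01 in those wild-type libraries and at -0.06 in null library 2.

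The promoters of *Kdr* and *Flt1*, which varied together, and of *Emcn*, whose coefficients with them were near or below 0, are printed with the 250 bases before the RefSeq start (GRCm38.p6) written 5′ to 3′ on the strand of the gene. Capitals mark GGAAG or its reverse complement CTTCC, a stretch that holds the GGAA core bound by ETS factors, the family of endothelial regulators that includes *Erg*, *Fli1* and *Ets1*. No other motif was searched.
*Kdr*, chr5:75978456-75978705, minus strand: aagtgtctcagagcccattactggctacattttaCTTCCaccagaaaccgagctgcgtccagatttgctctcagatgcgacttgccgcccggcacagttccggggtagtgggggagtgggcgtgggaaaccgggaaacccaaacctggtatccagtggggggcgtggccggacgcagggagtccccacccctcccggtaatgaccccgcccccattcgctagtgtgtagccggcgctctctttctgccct
*Flt1*, chr5:147726012-147726261, minus strand: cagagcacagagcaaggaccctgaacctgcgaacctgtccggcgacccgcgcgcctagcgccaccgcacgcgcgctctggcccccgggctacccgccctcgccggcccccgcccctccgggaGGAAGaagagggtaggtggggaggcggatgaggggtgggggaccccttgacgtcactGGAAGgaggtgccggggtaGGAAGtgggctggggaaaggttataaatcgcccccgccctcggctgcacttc
*Emcn*, chr3:137340828-137341077, plus strand: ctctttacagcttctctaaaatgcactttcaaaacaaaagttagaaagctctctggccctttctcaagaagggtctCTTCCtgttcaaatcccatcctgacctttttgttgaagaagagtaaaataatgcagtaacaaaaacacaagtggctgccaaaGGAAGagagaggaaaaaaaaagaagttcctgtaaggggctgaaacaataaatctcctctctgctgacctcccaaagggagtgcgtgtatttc
The window of *Kdr* held 1 copy, that of *Flt1* 3 and that of *Emcn* 2. Copies were also present in the windows of *Flt4* (1), *Tie1* (6) and *Vegfa* (1 in each of 2 listed promoters), and there was none in those of *Tek* and *Vegfc*, so 6 of 8 genes with a RefSeq promoter held the motif. Of all 32851 promoters of this length, 64.1% held at least 1 copy and 29.4% at least 2, so presence of the motif did not set these genes apart. Base composition differed, with 61.6% G and C and 16 CG pairs before *Kdr*, 70.4% and 23 before *Flt1*, and 40.8% and 1 before *Emcn*, against a median of 52.4% and 6 pairs.

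Other genes were set against the mean centred pattern of *Kdr*, *Flt1* and *Flt4*. As *Kdr* and *Flt1* rest on the second rule, the limit given for their coefficients holds for these values too. Over 8170 protein-coding genes whose mean reached 100, the median correlation was -0.01 and 20.2% had a value over 0.5, so many genes varied along with the receptors. Of the 24 endothelial junction and surface genes with counts, 9 had a value over 0.5 (37.5%, median 0.37), the highest being *Adgrf5*, an adhesion receptor of capillary endothelium, at 0.89, and the lowest *Vwf*, the clotting factor stored in endothelium, at -0.66. Of 13 endothelial transcription factors 6 passed that value (median 0.08), with *Fli1* at 0.94 and the valve and lymphatic regulator *Foxc2* at -0.72. Of 13 other genes of VEGF and angiopoietin signalling 6 passed it (median 0.36), with *Apln*, the ligand of sprouting coronary endothelium, at 0.86 and *Apela* lowest at -0.91. Of the coronary and capillary list 2 of 2 genes passed it, *Aplnr* (0.74, median 0.80) and *Apln*, which is also on the signalling list. Of 5 arterial genes 2 did (median 0.03). The remaining endothelial lists had lower values, with medians of -0.44 for 5 endocardial genes, of which 1 passed 0.5, and -0.37 for 5 venous and lymphatic genes, of which 0 did. Of other cell types, 0 of 8 epicardial genes (median -0.58) and 0 of 5 macrophage genes (median -0.67) passed 0.5, while 1 of 4 mesenchymal and cushion genes (*Lum*, 0.69, median 0.08) and the 1 pericyte gene with counts and a mean over 100 (*Pdgfrb*, 0.63) did. The epicardial retinoic acid enzyme gene *Aldh1a2* reached -0.94. The summed level of the 8 epicardial genes was 3728 and 3734 in wild-type libraries 1 and 3 and 3835 in null library 2, the libraries with the lowest receptor values, and 3146 to 3696 in the other 7. The part of the cell makeup of each dissected heart in these patterns was not tested.

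By the measure set for likeness, the mean centred pattern of *Flt4*, *Emcn* and *Vegfc* over the 10 libraries, the nearest of 7228 genes included *Jmjd1c*, *Pcdhga10*, *Fam208b*, *Abi1*, *Tubgcp3*, *Ptch1*, *Adamts8*, *Zfp131* and *Robo4*, with correlations from 0.98 down to 0.94. One of them, *Robo4*, is a receptor restricted to endothelium. A value over 0.5 was reached by 20.9% of the 7228 genes, and the 10 nearest genes were unstable: leaving out 1 library kept 1 to 8 of them, the fewest without null library 3, and including *Kdr* and *Flt1* kept 2, *Jmjd1c* among them.

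The rest of the pathway and the other endothelial genes were examined through fixed lists. Of 26 other genes of VEGF and angiopoietin signalling with a mean of at least 10, 13 were higher in the null mean (median log2 ratio 0.01). Of the 21 tested, none passed an adjusted *P* of 0.05 by limma or voom. By limma 1 (*Angpt2*) had an unadjusted *P* under 0.05, where 3.42% of 11225 genes had. The most abundant were the semaphorin receptor *Plxnd1* (5499 and 5582), the VEGF co-receptor *Nrp1* (3141 and 3173) and the calcineurin regulator *Rcan1* (1975 and 1930). Partners of the 10 genes were then named by role, outside the rule and with their values known. The other VEGF ligands had group means of 1440 and 1372 for *Vegfb*, 54.5 and 54.5 for *Pgf*, and 51.8 and 44.6 for *Figf*, the table's symbol of the gene for VEGF-D. Of the *Tek* ligands, *Angpt1* had means of 963 and 1071 (log2 difference 0.16 ± 0.0948). *Angpt2*, which opposes *Angpt1* at vessels that sprout or regress, had 61.1 and 44.1 (-0.52 ± 0.189, SE, limma adjusted *P* = 0.998). *Nrp2*, the co-receptor that works with *Flt4*, had 510 and 433 (-0.22 ± 0.164), and *Ptprb*, the phosphatase that acts on *Tek*, had 519 and 538 (0.05 ± 0.141). *Nos3*, the endothelial nitric oxide synthase that lies downstream of *Kdr*, had 1111 and 1098 (-0.02 ± 0.0345). None of the tested differences passed the adjusted test, and *Vegfb*, *Plxnd1*, *Nrp1* and *Rcan1* were not tested.

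Among endothelial junction and surface genes 18 of 33 were higher in the null (median 0.01), led in abundance by *Mcam* (4609 and 4737), *Eng* (3568 and 3575) and *Cd93* (2812 and 2948). Among endothelial transcription factors it was 15 of 19 (median 0.03), led by *Ets1* (1675 and 1686), *Elk3* (1361 and 1385) and *Hey2* (1345 and 1385). The endocardial list had 6 of 11 higher (median 0.02), led by *Cdh11* (2864 and 2911), *Npr3* (1931 and 1978) and *Plvap* (1722 and 1706). The coronary and capillary list had 6 of 10 (median 0.03), led by *Lpl* (2333 and 2375), *Cd36* (981 and 1042) and *Aplnr* (269 and 246). The arterial list had 7 of 11 (median 0.03), with *Unc5b* (2713 and 2803), *Gja5* (2486 and 2576) and *Efnb2* (1226 and 1255) at its top. The venous and lymphatic list had 7 of 11 (median 0.05), with *Ephb4* (2134 and 2120), *Prox1* (1016 and 1061) and *Nr2f2* (890 and 934). The list of the hypoxia response, which induces *Vegfa*, had 11 of 15 (median 0.03), with *Ldha* (14759 and 15105), *Pgk1* (10471 and 10861) and *Slc2a1* (4168 and 4412). Over protein-coding genes whose mean reached 10, the median was -0.001, with 49.5% higher in the null. Of the tested genes in these 7 lists, none passed an adjusted *P* of 0.05 by limma or voom. By limma 2 had an unadjusted *P* under 0.05, *Vwf* (higher in the null) and the lymphatic chemokine gene *Ccl21a* (lower). Over all 11225 genes the share was 3.42%. Summed levels overlapped between genotypes in each of these lists, for instance 12137 to 12681 in wild type and 12320 to 12983 in the null for 26 junction and surface genes.

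The lists of other cell types were described by their counts. The counts of genes higher in the null were 8 of 12 for cardiomyocytes (median 0.02), 6 of 9 for epicardium (0.07), 5 of 10 for mesenchyme and cushions (-0.01), 1 of 9 for smooth muscle and pericytes (-0.07) and 2 of 11 for macrophages (-0.12). All 8 neuronal genes with a mean of at least 10 were lower in the null mean (median -2.62). The 5 listed neuronal genes with counts summed to 58.5 to 68.6 in the null libraries, close to the wild-type libraries other than library 3. Without wild-type library 3, the log2 differences of *Kdr*, *Flt4*, *Emcn* and *Vegfc* were 0.124, -0.0283, -0.0070 and 0.156. Of lung and liver markers only *Afp* had a mean of at least 10, at 21.1 and 8.29, and the sum of 8 such genes was 27 to 82.3 in wild type and 21.6 to 34.9 in the null.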

How the data were processed

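Stranded polyA libraries were made from E13.5 hearts of male embryos, 5 of each genotype. Adapters and low-quality bases were removed by the authors with Trimmomatic 0.36. The authors then used RSEM 1.2.31, which called STAR, to align read pairs to GRCm38 transcripts (GENCODE M10) and to count them by strand, and compared gene-level counts with DESeq 1.24.0, as the paper's methods and the submitters' processing notes state. The deposited values used here are signal values: normalized counts, which the authors averaged over the libraries of a genotype. The authors' own fold changes, log2 fold changes, p-values and adjusted p-values in the same table were not used. No gene has a value per sample in the table, so the depth of a library is an estimate.

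Whole counts of single libraries were searched among sets that give a deposited mean to its last of 15 digits. The search covered only sets within a limited distance of equal normalized counts over the libraries of a genotype. A gene with an outlying library can thus go unsettled. By the first rule, a set of counts was accepted if chance would give at most 0.01 further sets as near and the mean was under 1000. This settled 98.8% of wild-type and 99% of null means under 1000. The second rule, added after seeing the data, took the most probable set at a posterior of at least 0.95 for means up to 2500. On genes of known counts with digits removed, the sets taken by the second rule were right for 225 of 225, 92 of 92, 255 of 256 and 113 of 113 genes. These genes had been settled by the first rule, with means under 1000, below those of *Kdr*. The first rule and the limma fit were tested on simulated data, and the second rule was not. Normalized counts were compared on the scale log2(value + 1) with limma 3.58.1 (R 4.3.3, trended and robust moderation), over protein-coding genes whose mean reached 10, adjusted by Benjamini-Hochberg, and for single genes by permuting the 10 libraries over all arrangements (exact, two-sided). Sums, ratios and correlations carry no test. Intervals are at 95%.

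All 10 genes are named, and from the pathway, endothelial and hypoxia lists the 3 genes with the highest mean. The lists of other cell types are given by counts. The 10 genes nearest in pattern were chosen by Pearson's r over 10 libraries, and 1 of them is not reported here. The members and lists were chosen with earlier results of these data known. Positions come from GENCODE M21 (GRCm38), in which 23068 of 23195 gene identifiers were found. Promoters come from RefSeq and matched 8 of the 10 genes.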

Additional observations from a re-analysis of the deposited data

Results flagged for a closer look

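In 46 groups of 5 libraries, the highest or lowest value was set against the rest by Dixon's test at the 95% level, and 4 stood apart, where chance gives about 1 in 20. The summed level of the 5 genes of this report with library counts was 3823 in null library 2, the lowest of that group, against 4154 to 4247 in the other null libraries. The summed level of the other genes of VEGF and angiopoietin signalling was also lowest in null library 2, at 5271 against 5698 to 5746. The summed level of the 6 hypoxia genes with counts was highest in wild-type library 2, at 1483 against 1313 to 1360. The summed level of the neuronal genes was highest in wild-type library 3, at 585 against 51.7 to 70.7.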

How the results depend on the processing

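No paired analysis was possible because the deposited means carry no replicate numbers. *Flt4*, *Emcn* and *Vegfc* were called under none of the settings run. These were pseudocount 0.5, voom, a mean of at least 1, genes of every type, plain moderation and a median shift. A chance limit of 0.001 (where only *Vegfc* could be tested) and the FDR of 0.05 without a fold threshold were also run. So were counts of the second rule and each library left out. *Kdr* and *Flt1* entered only the fits with counts of the second rule, with all libraries or with 1 left out. Neither was called there. With a library left out, 2 to 3 genes of the table were called. The number of genes here with an exact P under 0.05 was 0 of 3 by the first rule and 1 of 5 (*Kdr*) with the second rule included. With each library left out, the log2 difference ranged from 0.113 to 0.167 for *Kdr*, 0.0697 to 0.189 for *Vegfc*, -0.0218 to 0.0745 for *Flt1*, -0.0339 to 0.0541 for *Flt4* and -0.0444 to 0.0147 for *Emcn*, and the difference of means from -14.3 to 48.8, -15.9 to 23.4 and -20.9 to 6.23 normalized counts for the last 3. So the sign of these 3 is not settled, and those of *Kdr* and *Vegfc* were kept. A pseudocount or the median shift left 8 of 10 group means higher in the null. Of the order of levels in wild type, 2 of 10 places were kept with the longest coding transcript. Of the 10 genes nearest in pattern, 2 were kept by Spearman's rho, 2 with the second rule and 1 to 8 with a library left out. The cause was not tested. Genes with means over 2500 could not be resolved into libraries, so *Cdh5* has no error.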
